A study of Mus musculus with 4 samples.

Results

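The 44 collagen genes of the mouse were followed through single-cell libraries of bone marrow stroma and vessels, by cell class and by library. They are all features whose symbol is Col, a number, the letter a and a number, with at least 10 unique molecular identifiers (UMIs, 1 per captured transcript molecule) over the 4 libraries. All 44 matching symbols of the 31053 features met that count, the lowest being Col6a6 with 10 and Col4a3 with 21 UMIs, so no symbol fell just outside it. The rule used no difference between groups or classes.

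The study crossed deletion of Vegfc, a growth factor for lymphatic and sinusoidal endothelium, with irradiation. Control mice were Vegfc flox/flox, and Vegfc-deleted mice were Rosa26-CreERT2; Vegfc flox/flox, in which a tamoxifen-activated recombinase is driven from the ubiquitously active Rosa26 locus, so deletion was not aimed at 1 cell type. All mice were on the C57Bl/6JCrl background and got 5 gavage doses of tamoxifen at 7 to 8 weeks of age. In the irradiated groups, 4 Gy over the whole body followed 2 weeks later, and their marrow was taken 7 days after that. No such time is recorded here for the non-irradiated groups. The labels give tamoxifen to both genotypes in 1 place and to part of the samples in another. They also count 3 mice irradiated for each genotype, whereas 2 went into each irradiated pool. Marrow of the tibia was freed with an enzyme mix of dispase II, DNase I and collagenase I, and the sort took living cells that carried no lineage marker, no Ter119 and no CD45. Each group is 1 library, pooled from 3 mice without and 2 mice with irradiation.

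With 1 library per group no comparison could be tested against the spread between mice. Values are therefore given per library, always with the non-irradiated control first, then the Vegfc-deleted library without irradiation, then the irradiated control, and last the Vegfc-deleted library after irradiation. Levels are UMIs per 1000000 UMIs of a class (CPM), and 95% intervals, in brackets, cover counting error only. A gene is called higher or lower here where its CPM differed at least 1.5-fold with at least 30 UMIs in the library where it was higher. The libraries count 1 end of each transcript, so levels of different genes were not divided by gene length.

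Collagens are secreted helical trimers of alpha chains, and each gene encodes 1 chain. Fibrillar collagens such as I, II, III, V and XI form the cables of bone, cartilage and connective tissue, collagen IV forms the network of basement membranes, and collagen VI forms beaded filaments around cells. In marrow, osteoblasts lay down collagen I, while sinusoidal endothelium and the perivascular stromal cells that express Lepr and Cxcl12 sit on a thin, discontinuous basement membrane.

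Libraries held 5134 to 7737 barcodes and 54462123 to 77284922 UMIs. After filters 5058, 5211, 3837 and 4065 cells were kept, with median depths of 7635.5, 7851.0, 9874.0 and 9808.0 UMIs. Vegfc itself was read first. In LepR+ stromal-like cells, its main source, it stood at 167, 17.5, 176 and 24.9 CPM, low in both libraries labelled Vegfc-deleted. The labels do not say which exons lie between the flox sites, so the level was measured and not inferred. Despite the Ter119-negative sort, erythroid-like cells made up 40%, 39.4%, 13.4% and 8.24% of kept cells. Between 3 and 21 kept barcodes were shared by any pair of libraries, and leaving all of them out changed no count of called collagen genes by more than 1.5 times. Classes were named from marker genes after a clustering in which no collagen gene took part. Clusters that met no name held 2.14%, 3.95%, 6.98% and 8.83% of cells, under thresholds that were adjusted after the clusters had been seen.

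Kept cells held 116550 and 68551 collagen UMIs in the non-irradiated libraries and 1456574 and 700296 in the irradiated ones, and these came from different cells. Osteolineage-like cells, defined by bone genes such as Bglap, Sp7 and Dmp1, were 17, 7, 128 and 78 cells and held 35.1%, 26.7%, 94.4% and 95.7% of their library's collagen UMIs. LepR+ stromal-like cells were 1206, 752, 436 and 147 cells and held 58.3%, 61.4%, 2.37% and 1.54%. The sort and the digestion can set these cell numbers, and their part in the change was not tested. Fibrillar genes gave 94.1% of all collagen UMIs. The other families gave 2.48% (collagen IV), 2.18% (collagen VI), 0.531% (fibril-associated), 0.504% (short-chain network), 0.117% (multiplexins), 0.114% (transmembrane) and 0.0132% (anchoring and other).

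Within a class, collagens took 10.9%, 10.8%, 28.7% and 23.2% of all UMIs of osteolineage-like cells. The second share leans on 1 cell with 58158 UMIs, 17.9% of them from collagens, which is described further on. So does the class's share of that library's collagen UMIs, given above. Collagens took 6099, 6341, 7621 and 7906 CPM in LepR+ stromal-like cells and 888, 837, 1758 and 1696 CPM in sinusoidal endothelial-like cells (306, 358, 1393 and 672 cells, marked by Stab2, Flt4 and Dnase1l3). The few pericyte- or smooth muscle-like cells (18, 16, 15 and 7) reached 6760.0, 4817, 5004 and 12140.0 CPM, and other endothelial-like cells (4, 19, 104 and 24) 2886, 4568, 4461 and 4639 CPM. Erythroid-like cells, which make no collagen matrix and served as the reading of free RNA, held 50.5, 60.3, 213 and 102 CPM. Of these totals Col5a1 gave 25.5, 32.2, 9.24 and 10.7 CPM. Its pattern, given further on, was unlike that of Col1a2, so the totals are not a reading of free RNA alone. The erythroid level of Col1a1 was higher in the irradiated libraries, at 92.2 and 42.3 CPM against 3.26 and 10.6 CPM without irradiation.

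**Figure D1:**
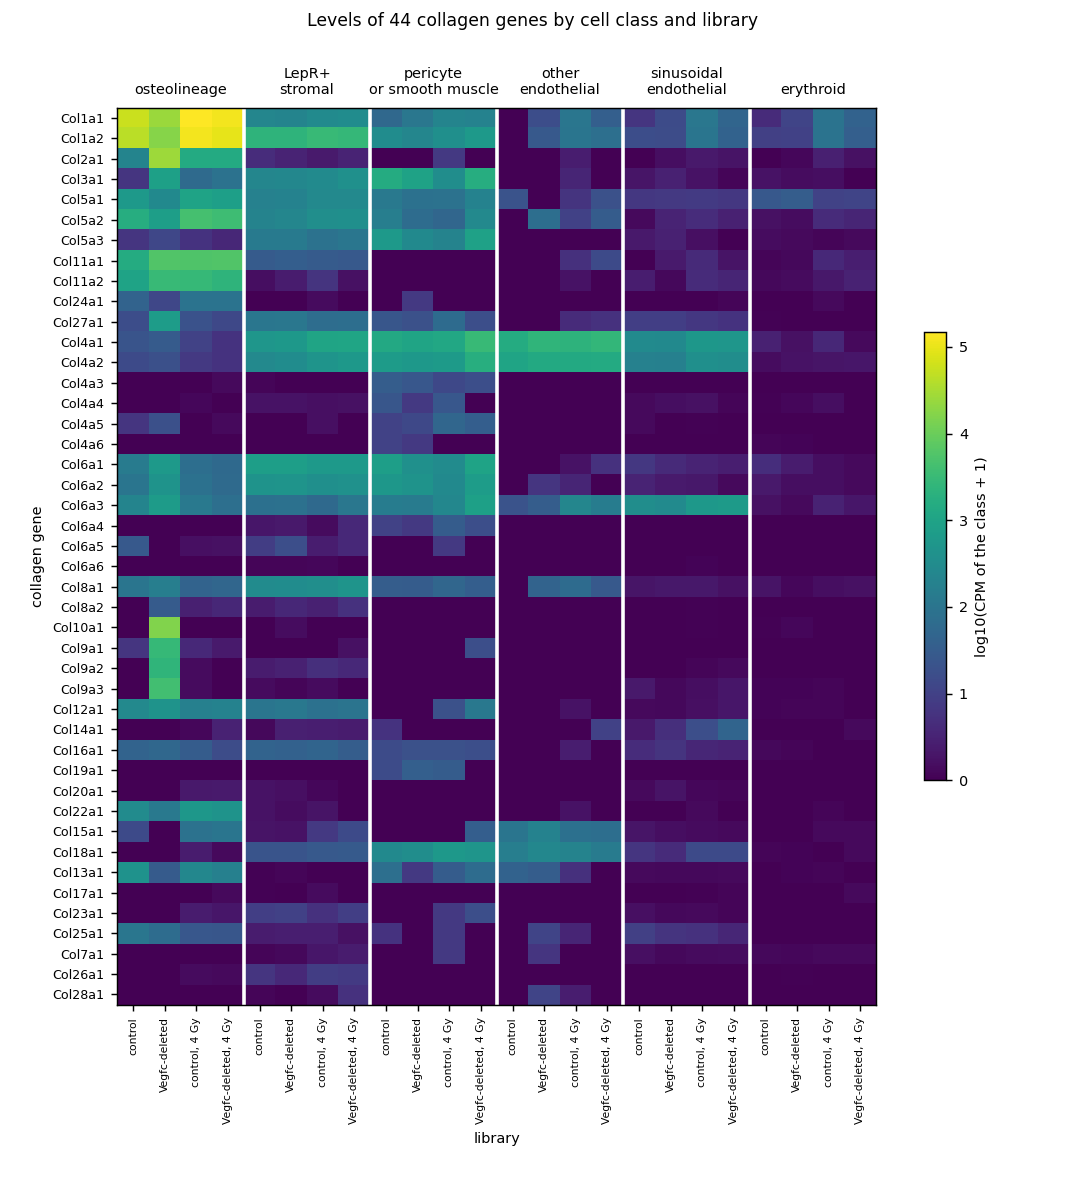
Heat map of the 44 collagen genes (rows, by family) in 6 cell classes, each with its 4 libraries in the order given in the text. Colour is log10 of CPM plus 1. Osteolineage-like cells are highest for Col1a1 and Col1a2 (148829.7 and 121695 CPM in the irradiated control), sinusoidal endothelial-like cells show Col4a1, Col4a2 and Col6a3, and LepR+ stromal-like cells show chains of collagens I, III, IV, V, VI and VIII.

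Col6a3 and Col6a1, partners in collagen VI, were abundant in different classes, and Col5a1 stood above Col1a2 in erythroid-like cells without irradiation, as the values further on show. Sequence upstream of each is printed for that reason. The windows are RefSeq's, build GRCm38.p6, read 5′ to 3′ on the gene's strand, cut where an exon begins. Capitals mark the ETS core GGAAG (or CTTCC on the other strand) and the GC box GGGCGG (or CCGCCC). Col6a3 lies on the minus strand and its window is chr1:90843972-90844221. Col6a1, also on the minus strand, has chr10:76726169-76726294, and Col5a1, on the plus strand, has chr2:27886175-27886424.
Col6a3: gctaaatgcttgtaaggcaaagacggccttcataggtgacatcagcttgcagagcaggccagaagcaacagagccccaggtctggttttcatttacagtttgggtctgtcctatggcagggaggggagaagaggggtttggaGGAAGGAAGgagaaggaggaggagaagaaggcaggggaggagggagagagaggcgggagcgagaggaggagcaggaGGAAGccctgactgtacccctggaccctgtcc
Col6a1: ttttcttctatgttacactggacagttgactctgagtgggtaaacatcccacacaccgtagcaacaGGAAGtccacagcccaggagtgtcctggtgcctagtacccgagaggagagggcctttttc
Col5a1: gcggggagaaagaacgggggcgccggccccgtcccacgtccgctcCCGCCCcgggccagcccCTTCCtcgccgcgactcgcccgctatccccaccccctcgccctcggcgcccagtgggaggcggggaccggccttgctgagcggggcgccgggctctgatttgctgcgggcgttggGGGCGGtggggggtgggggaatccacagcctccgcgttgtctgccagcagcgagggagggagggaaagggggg
The Col6a3 window held ETS cores at 108, 104 and 32 bases before the RefSeq start, and the Col6a1 window 1 at 184 bases. The Col6a1 print has 126 bases against 250 for Col6a3 and Col5a1. It lacks the part nearest the RefSeq start, so its matches cannot be set against theirs. The Col5a1 window held GC boxes at 73 bases and, on the other strand, at 205 bases, and an ETS core on the other strand at 188 bases. Over the full windows, 250 bases before to 50 after the start, the ETS core was found in 27 of the 35 collagen genes with a window (77.1%) and in 64.1% of all 32851 windows. The GC box was found in 21 (60%) against 32.7%, CCAAT (other strand ATTGG) in 13 (37.1%) against 33.8%, and TATAAA (other strand TTTATA) in 5 (14.3%) against 12.4%. The AP-1 site TGACTCA (other strand TGAGTCA) was found in 1 (2.86%) against 4.46%, and the GATA site AGATAA (other strand TTATCT) in 2 (5.71%) against 9.99%. Motifs may overlap, and a match is a description of letters only.

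In LepR+ stromal-like cells Col4a1, a basement membrane chain, had the largest irradiation ratio of the 14 named genes in both genotypes. It stood at 533, 575, 1043 and 1109.9 CPM, so both irradiated libraries lay above both others, by 1.96-fold (1.88 to 2.03) in the control and 1.93-fold (1.82 to 2.05) in the Vegfc-deleted genotype. Col4a2, its partner in the collagen IV trimer, stood at 274, 329, 474 and 560.1 CPM, 1.73-fold (1.64 to 1.83) and 1.70-fold (1.57 to 1.85) higher. Col4a1 and Col4a2 lie head to head on chromosome 8, with annotated starts at 11312826 on the minus strand and 11312805 on the plus strand of mm10, sharing 22 bases. Their ratio of UMIs was 1.94, 1.75, 2.20 and 1.98. The 4 other collagen IV genes, Col4a3 to Col4a6, stayed under 100 UMIs over the series' kept cells.

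Among fibrillar genes of these cells, Col5a2, a chain of the collagen V that nucleates fibrils, stood at 200.4, 231, 351 and 374 CPM and was 1.75-fold (1.64 to 1.87) and 1.62-fold (1.46 to 1.79) higher with irradiation. Col1a2 was the most abundant collagen transcript of the class at 2343, 2351, 3116 and 2817 CPM, with ratios of 1.33 (1.30 to 1.36) and 1.20 (1.16 to 1.24). Col3a1, the homotrimeric collagen of soft tissue, stood at 235, 242, 298 and 388 CPM, 1.27-fold (1.19 to 1.36) and 1.61-fold (1.45 to 1.77) higher. Col5a1 gave 189, 197, 268 and 268 CPM. Col5a3 (129, 136, 89.4 and 106 CPM) and Col27a1 (108, 113, 70.9 and 73.9 CPM) went the other way, and only Col27a1 passed the fold in both genotypes, 1.52-fold (1.34 to 1.73) and 1.53-fold (1.25 to 1.91) lower.

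Col1a1 was low in these cells relative to its partner. It stood at 235, 218, 291 and 324 CPM, and the ratio of Col1a1 to Col1a2 UMIs was 0.100, 0.0928, 0.0933 and 0.115. In osteolineage-like cells the same ratio was 1.30, 1.48, 1.22 and 1.29, so it differed far more between these classes than between the libraries of a class.

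Of the collagen VI chains of LepR+ stromal-like cells, Col6a1 and Col6a2 were lower with irradiation by less than the fold used here. Col6a1 stood at 788, 807, 602 and 638 CPM, 1.31-fold and 1.27-fold lower, and Col6a2 at 445, 477, 378 and 416 CPM. Col6a3 split by genotype. It stood at 79.7, 82.3, 56.7 and 112 CPM, a ratio of 0.712 (0.617 to 0.819) in the control and 1.36 (1.13 to 1.63) in the Vegfc-deleted genotype, and in the irradiated libraries the Vegfc-deleted level was 1.97-fold (1.61 to 2.42) the control's. With every cell thinned to 1500 UMIs the ratio in the Vegfc-deleted genotype turned to a log2 of -0.16, and the irradiated genotype difference fell to a log2 of 0.40. The difference between genotypes in the response was not tested.

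Col8a1, a short-chain collagen of subendothelial matrix, stood at 312, 325, 358 and 484 CPM, and Col12a1, which coats collagen I fibrils, at 99.8, 119, 83.7 and 95.2 CPM. Neither passed the fold in a genotype. Some collagen genes under the level set for naming passed it and are named after their values were seen, because the counts are small. Col6a5 stood at 7.54, 16.6, 1.55 and 2.93 CPM (84, 110, 7 and 4 UMIs), 4.88-fold (2.27 to 12.5) and 5.66-fold (2.15 to 21.1) lower with irradiation and 2.20-fold (1.64 to 2.96) higher in the non-irradiated Vegfc-deleted library than in its control. Col2a1 and Col23a1 were lower with irradiation in the control (40 against 6 and 89 against 20 UMIs). Col2a1 (15 UMIs) and Col26a1 (20 against 58) were lower in the non-irradiated Vegfc-deleted library.

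In counts, 3 of the 21 collagen genes with 30 UMIs were higher with irradiation in the control (14.3%, where 16.6% of all features were), and 4 were lower (19.0% against 10.8%). In the Vegfc-deleted genotype 4 of 19 were higher (21.1% against 11.8%) and 2 lower (10.5% against 12.9%). The genes higher in both were Col4a1, Col4a2 and Col5a2. Vegfc deletion without irradiation left 1 of 21 higher (4.76% against 2.16%) and 2 lower (9.52% against 4.64%), and with irradiation 1 of 18 higher, Col6a3 (5.56% against 5.87%), and 0 lower (against 11.8%). The median log2 ratio over collagen genes was 0.12 (all features 0.17), 0.26 (0.15), 0.07 (-0.00) and 0.10 (-0.04) in these comparisons. The shares and medians of the collagen genes were thus close to those of all features in several of them, and the comparisons share libraries, so they are not independent. Scaling by trimmed means (TMM factors 0.944, 0.939, 1.06 and 1.06) lowered the irradiation ratios, and Col3a1 and Col5a2 no longer passed in the Vegfc-deleted genotype.

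**Figure D2:**
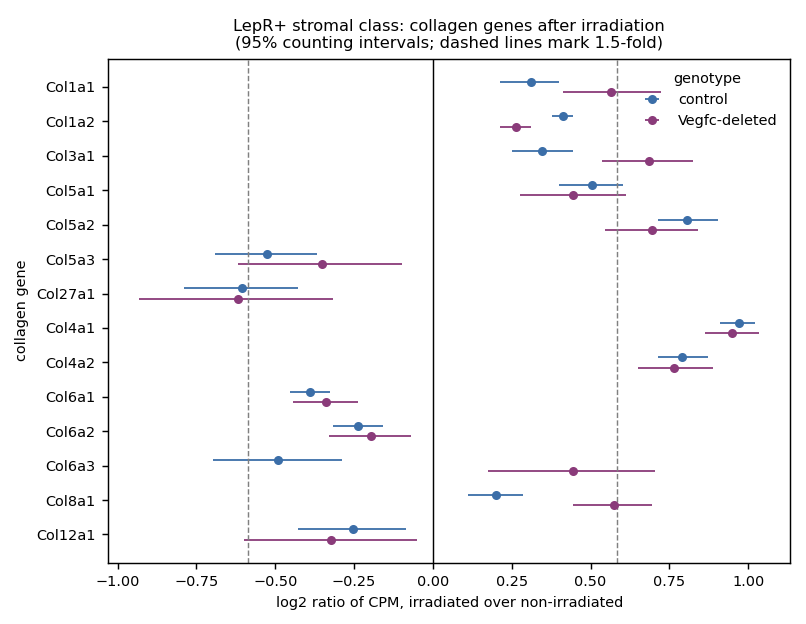
Log2 ratio of irradiated to non-irradiated CPM for the 14 collagen genes named in LepR+ stromal-like cells, 1 point per genotype, with 95% counting intervals; dashed lines mark 1.5-fold. Col4a1, Col4a2 and Col5a2 lie above the upper line in both genotypes, and Col27a1 below the lower one.

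Different clusters held the class before and after irradiation. Cluster 2 had 1064, 616, 36 and 13 of its cells, cluster 10 had 7, 7, 373 and 123, and a shallow cluster 17 had 135, 129, 27 and 11. Col4a1 was higher with irradiation inside cluster 2 (535, 579.5, 895 and 613 CPM), cluster 10 (576, 746, 1059 and 1159) and cluster 17 (466, 448, 897 and 772), though narrowly so for the 13 cells of cluster 2. Col1a1 was highest in the irradiated cells of cluster 2, at 1035 and 1735 CPM, against 218 and 204 in cluster 10. Col6a3 in cluster 10 stood at 41.9 CPM in the irradiated control and 100.4 in the irradiated Vegfc-deleted library. Summed neutrophil markers in the class (8 genes, none at 0 in any library) stood at 136, 397, 160.1 and 2693 CPM, highest in the library with 147 cells. Their part in the collagen values was not tested.

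In sinusoidal endothelial-like cells 3 collagen transcripts reached the level set for naming, and both irradiated libraries exceeded both non-irradiated ones for each. Col4a1 stood at 295, 290.4, 538 and 533 CPM, 1.83-fold (1.71 to 1.96) and 1.83-fold (1.71 to 1.97) higher. Col4a2 stood at 186, 175, 375 and 343 CPM, 2.02-fold (1.85 to 2.20) and 1.96-fold (1.79 to 2.14) higher. Erythroid-like cells gave 0.346 to 2.83 CPM for Col4a1. With cells thinned to 1500 UMIs the Col4a1 log2 ratio in the control was 0.55, under 1.5-fold. Cluster 8 held 296, 316, 17 and 3 cells of the class and cluster 0 held 10, 42, 1376 and 669, and Col4a1 was higher with irradiation in both (295, 294, 409 and 613 CPM in cluster 8, 288, 254, 539 and 532 in cluster 0).

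Col6a3 was the leading collagen of the sinusoidal class, at 336, 294, 562 and 645 CPM, 1.67-fold (1.57 to 1.79) and 2.19-fold (2.05 to 2.35) higher with irradiation. It had a UMI in 87.9%, 85.5%, 96.3% and 96.1% of cells (at 1500 UMIs per cell, 38.4%, 36.5%, 55.8% and 60.4%), against 0.841%, 0.438%, 2.13% and 0.896% of erythroid-like cells of similar median depth (9764.5, 9442.5, 10258.0 and 7857.5 against 6879.0, 7857.0, 8751.5 and 6894.0 UMIs). The chains that pair with it in the usual collagen VI trimer stood far below it. Col6a1 stood at 5.82, 3.05, 2.23 and 1.69 CPM, above its level in erythroid-like cells (3.70, 1.48, 0.566 and 0.346) in every library. Col6a2 stood at 2.26, 1.39, 1.18 and 0.338 CPM (erythroid-like cells 1.22, 0.557, 0.566 and 0.346). The part of free RNA in these low levels was not tested. The ratio of Col6a3 to Col6a1 UMIs was 57.7, 96.5, 251 and 381, where LepR+ stromal-like cells had 0.101, 0.102, 0.0943 and 0.176. Col6a3 was thus the highest of the 3 chains in the sinusoidal class and the lowest in the stromal class, in every library.

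**Figure D3:**
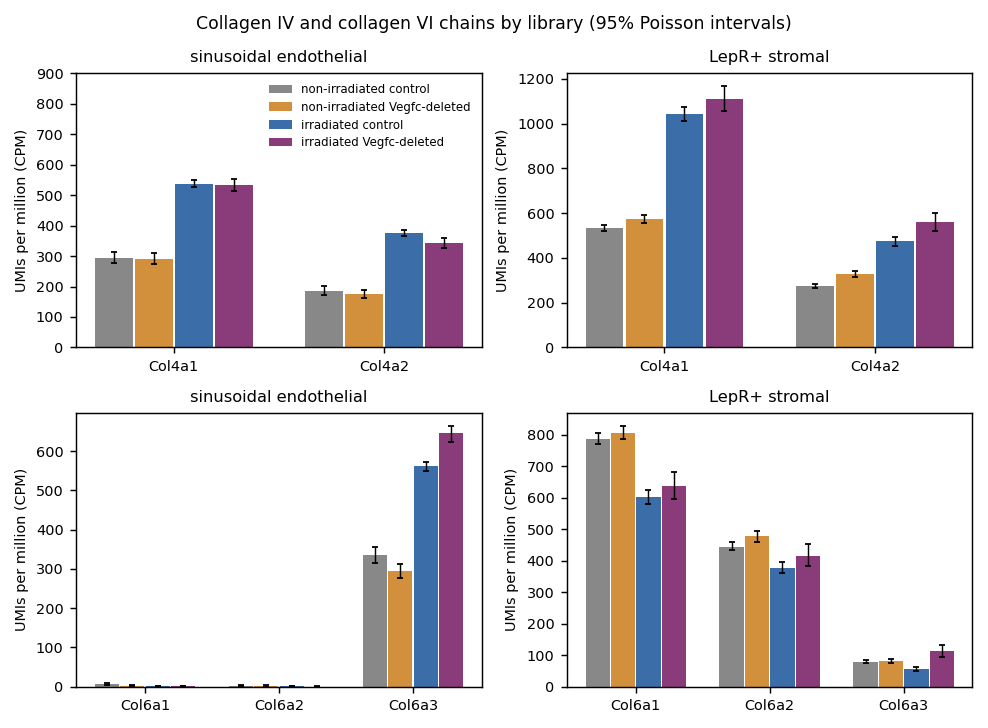
CPM of Col4a1 and Col4a2 and of Col6a1, Col6a2 and Col6a3 in sinusoidal endothelial-like and LepR+ stromal-like cells, 1 bar per library from 0, with 95% Poisson intervals. Collagen IV bars are taller in both irradiated libraries in both classes; Col6a3 is tall only in the sinusoidal panel (294 to 645 CPM) and Col6a1 only in the stromal panel (602 to 807 CPM).

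Col14a1, a fibril-associated collagen, and Col18a1, the basement membrane collagen that holds endostatin, were lower in level and are named after their values were seen. Col14a1 stood at 1.29, 3.88, 16.8 and 45.6 CPM (4, 14, 270 and 270 UMIs), 13-fold (5.0 to 47.9) and 11.8-fold (6.89 to 21.8) higher with irradiation. Within the irradiated libraries it was 2.72-fold (2.29 to 3.23) higher in the Vegfc-deleted one, where cells were shallower. It came from a minority of cells, 0.654%, 3.07%, 6.53% and 14.4% with a UMI (thinned to 1500 UMIs, 0.281%, 1.87% and 4.62% in the last 3 libraries), while erythroid-like cells had at most 1 such cell per library. Cells with Col14a1 carried the sinusoidal marker Stab2 at 1823 and 1567 CPM in the irradiated libraries, against 1729.6 and 1667 in the cells without. The macrophage marker C1qa was at 0.765 and 7.92 CPM against 6.01 and 15.1. Monocyte- or macrophage-like cells held Col14a1 at 18.1, 8.37, 16.7 and 6.61 CPM, above the sinusoidal class in both non-irradiated libraries. Col18a1 stood at 5.17, 3.33, 13.3 and 13.2 CPM, 2.57-fold (1.55 to 4.57) and 3.96-fold (2.15 to 8.00) higher.

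In the control 10 of the 15 collagen genes with 30 UMIs in the sinusoidal class were higher with irradiation (66.7%, where 19.2% of all features were) and 0 were lower (against 5.80%). In the Vegfc-deleted genotype 7 of 9 were higher (77.8% against 15.6%) and Col27a1 alone was lower (11.1% against 7.32%). Part of that count came from genes near their level in erythroid-like cells. Col1a1 stood at 5.17, 13.9, 111 and 46.8 CPM in sinusoidal against 3.26, 10.6, 92.2 and 42.3 in erythroid-like cells, and Col1a2 at 15.5, 14.7, 101 and 41.9 against 8.65, 9.2, 91.8 and 36.0. Col5a2 and Col11a1 reached at most 3.54 CPM in the sinusoidal class, and 3.39 in erythroid-like cells. In the irradiated libraries these 4 genes were thus near their erythroid level. The sinusoidal interval still lay above the erythroid one for Col1a1 in the irradiated control (106 to 116 against 84.2 to 101). It did so too for Col1a2 in both non-irradiated libraries and for Col5a2 in the non-irradiated Vegfc-deleted one. Col11a2 stood at 3.29 (2.46 to 4.30) against 1.13 (0.415 to 2.46) CPM in the irradiated control. The part of free RNA in these levels was not tested. The other 5 of the control's 10 were Col4a1, Col4a2, Col6a3, Col14a1 and Col18a1, all also higher in the Vegfc-deleted genotype. Median log2 ratios were 0.94 (all features 0.18) and 1.5 (0.15), and both medians include genes near their erythroid level.

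Between genotypes the main sinusoidal chains differed by less than the fold used here. Without irradiation the Vegfc-deleted level was 0.986 (0.901 to 1.08) of the control's for Col4a1, 0.942 (0.840 to 1.06) for Col4a2 and 0.877 (0.804 to 0.956) for Col6a3. With irradiation these were 0.99 (0.95 to 1.03), 0.914 (0.868 to 0.961) and 1.15 (1.10 to 1.19). Of 6 collagen genes 1, Col1a1 near its erythroid level, was higher without irradiation (16.7% against 4.33% of features) and 0 were lower (against 4.01%). With irradiation 1 of 15 was higher, Col14a1 (6.67% against 2.31%), and 5 were lower (33.3% against 6.08%): Col1a1, Col1a2, Col5a2, Col11a1 and Col25a1. The first 4 are the genes given above as near their erythroid level with irradiation, and Col25a1 had 71 against 15 UMIs. Medians were -0.08 (all features 0.01) and -0.21 (-0.00).

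Other endothelial-like cells, which met no arterial or sinusoidal name, were the richest endothelial source of basement membrane chains. Col4a1 stood at 1494, 2459.6, 2252 and 2605 CPM and Col4a2 at 1044, 1411, 1376 and 1454. The irradiation ratio of Col4a1 was 1.51 (1.19 to 1.93) in the control, resting on 4 non-irradiated cells, and 1.06 (0.936 to 1.20) in the Vegfc-deleted genotype. Col15a1 and Col18a1, the multiplexins of vessel basement membranes, stood at 102, 192, 80.1 and 71.4 CPM and at 164, 250.2, 209 and 143 CPM. Col6a3 was lower than in sinusoidal cells, at 20.5, 31.9, 237 and 147 CPM. Col8a1 was at 0, 42.6, 61.9 and 26.8 CPM, and the 0 UMIs of the first, from 4 cells, allow up to 75.5 CPM.

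Pericyte- or smooth muscle-like cells combined basement membrane and fibrillar chains. Col4a1 stood at 1304, 1026, 1287 and 3102 CPM, Col4a2 at 678, 574, 671 and 1718, and Col18a1 at 280.5, 348, 566 and 500.3. Col3a1 was their main fibrillar gene at 1487, 940.2, 348 and 1668 CPM, beside Col5a3 (612, 281, 205 and 900.5), Col1a2 (323, 232, 373 and 617) and Col5a2 (164, 67.2, 49.7 and 267). All 3 main collagen VI chains were present, with Col6a1 at 799, 397, 317 and 984 CPM, Col6a2 at 538, 446, 279.7 and 717 and Col6a3 at 145, 140.4, 242 and 884. The 7 cells of the irradiated Vegfc-deleted library were the highest for 9 of these 10 genes, and with irradiation Col3a1 was 4.27-fold (3.21 to 5.78) lower in the control and 1.77-fold (1.36 to 2.30) higher in the Vegfc-deleted genotype, a difference that was not tested. With 7 to 18 cells a library, differences in cell makeup cannot be told apart from differences in level.

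Osteolineage-like cells carried the bulk of collagen I. Col1a1 stood at 57757, 25011, 148829.7 and 121984 CPM and Col1a2 at 44286, 16843, 121695 and 94542, in the control 2.58-fold (2.54 to 2.61) and 2.75-fold (2.71 to 2.79) higher with irradiation. Because collagen UMIs filled 28.7% of the class in the irradiated control, the same ratio was taken per 1000000 UMIs of other genes, where Col1a1 was 3.22-fold (3.18 to 3.27) higher. The fibril-nucleating chains were also higher in the control. Col5a2 stood at 1644, 778, 4379.9 and 3702 CPM, 2.66-fold (2.46 to 2.89) higher, Col11a1 at 1532, 5939, 5516 and 5958, 3.6-fold (3.31 to 3.92) higher, and Col11a2 at 981, 3019, 2874 and 2296, 2.93-fold (2.64 to 3.26) higher. The second values of Col11a1 and Col11a2 came mostly from 1 cell, described further on. Without that cell they were 879.6 and 673 CPM, below all the other libraries.

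Other genes higher in the irradiated control were Col5a1 (618, 283, 986 and 835 CPM), Col24a1, a fibrillar collagen of bone (42.6, 11.8, 94.0 and 92.2 CPM), Col22a1, a fibril-associated collagen of tissue junctions (314, 124, 545 and 456 CPM), and Col2a1, the cartilage collagen (213, 26285, 1483 and 1425 CPM). In the irradiated control 12 of the 128 cells held 67.8% of the Col2a1 UMIs. The control log2 ratio of Col2a1, 2.79, ran from 0.87 with thinning to 5.42 with at least 1000 genes per cell. Col15a1, a multiplexin, stood at 13.3, 0 (up to 21.8), 86.7 and 101 CPM, 6.51-fold (2.77 to 20.1) higher in the control, and Col3a1 at 5.33, 855, 61.4 and 90.1 CPM, a ratio of 11.5 (3.16 to 95.6) over 2 UMIs. Lower in the irradiated control were Col6a1 (141, 625, 73.3 and 56.5 CPM), Col6a3 (211, 702, 124 and 75.6), Col8a1 (101, 159, 42.8 and 50.9), Col12a1 (274, 460.0, 174 and 193), Col13a1 (429, 29.5, 247 and 174) and Col25a1 (104, 64.9, 24.9 and 23.6). Col6a2 stood at 101, 454, 85.0 and 61.0 CPM.

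These are 11 higher of 21 collagen genes with 30 UMIs (52.4%, where 13.6% of all features were) and 6 lower (28.6% against 9.18%). The median log2 ratio was 0.73 over collagen genes and -0.38 over all features. Under TMM factors of 1.19, 1.16, 0.841 and 0.862 the 11 higher genes stayed and Col27a1 joined them, while of the 6 lower ones Col8a1 and Col25a1 remained. With cells thinned to 1500 UMIs 7 of the 11 and none of the 6 passed, and Col8a1 turned to a log2 of 0.93. The 6 stood at 101 to 429 CPM in the 17 non-irradiated control cells. At 1500 UMIs a cell, genes at that level could hardly reach 30 UMIs there. Thinning therefore cannot decide on the 6, and the Col8a1 value rests on very few UMIs. The log2 ratios of Col1a1, Col1a2, Col5a2, Col11a1 and Col11a2 were 0.71 or higher under each alternative run. Higher and lower genes alike rest on 17 non-irradiated cells, of which 5 reached 10% collagen.

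The cells of the class were unlike each other. Collagens took a median of 1.05%, 6.39%, 29.4% and 25.7% of a cell's UMIs, with ranges of 0.527% to 30.8%, 0.984% to 26.1%, 0.469% to 50.5% and 0.684% to 46.9%. At least 10% was reached by 5 of 17, 2 of 7, 91 of 128 and 60 of 78 cells. All cells belonged to 1 cluster, so the irradiated libraries held more collagen-rich cells in it as well as more cells. Col2a1 passed 1000 CPM in 2, 1, 32 and 22 cells. Over the whole class in the irradiated libraries, the 8 cartilage markers summed to 26.7 and 26.3 CPM, with Matn1 and Cnmd at 0 in both. Hapln1 had 48 and 29 UMIs, Comp 40 and 8, Sox9 24 and 32, Matn3 7 and 2, Chad 5 and 3 and Acan 4 and 2, while Bglap, the bone gene for osteocalcin, had 149331 and 151683 UMIs.

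**Figure D4:**
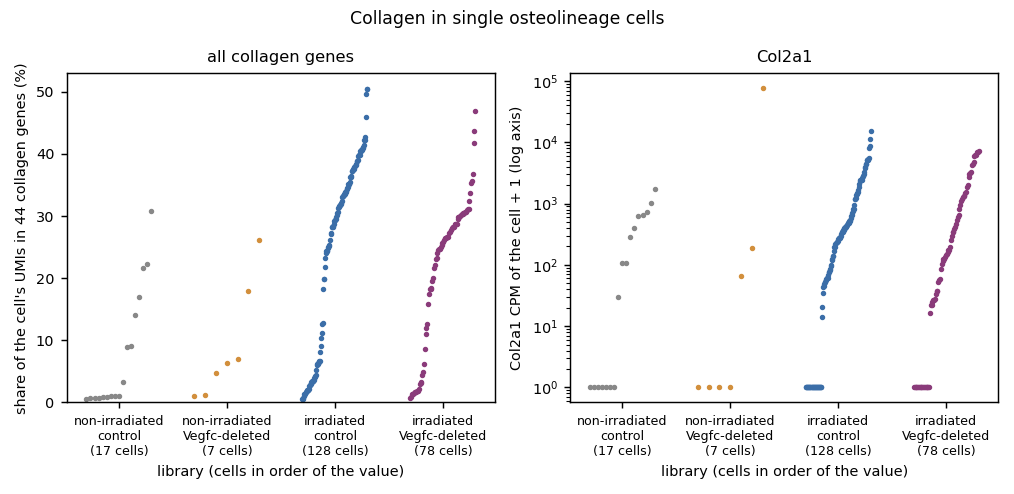
Each point is 1 osteolineage-like cell, by library: percent of its UMIs from collagen genes, and its Col2a1 level as CPM plus 1 on a log axis. Most irradiated cells lie above 10% collagen (91 of 128 and 60 of 78), and 1 non-irradiated Vegfc-deleted cell stands at 76499 Col2a1 CPM.

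In the non-irradiated Vegfc-deleted library 1 of the 7 cells was different in kind, and it is described after its values were seen. It had 58158 UMIs and held 99.8% of the library class's Col2a1 UMIs and all 2703 Col10a1 UMIs, Col10a1 being the collagen of hypertrophic cartilage. It also held 491, 411 and 698 UMIs of Col9a1, Col9a2 and Col9a3, the chains that coat collagen II fibrils, and 364 of Acan, 202 of Matn1 and 100 of Cnmd. In the class this gave Col10a1 15941 CPM where the other libraries had 0, and Col9a1 5.33, 2896, 2.92 and 1.39, Col9a2 0, 2424, 0.418 and 0, and Col9a3 0, 4116, 0.418 and 0 CPM. The Col27a1 level of 708 CPM there, against 16, 18.8 and 12.1 elsewhere, came with 95.8% of its UMIs from the same cell. Without this cell the irradiation ratio of Col1a1 in the Vegfc-deleted genotype was 3.21 (3.11 to 3.30), against 4.88 (4.73 to 5.03) with it. With 7 cells, collagen genes were not counted as higher or lower for the comparisons that use that library.

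Between the irradiated genotypes 0 of 21 collagen genes were higher in osteolineage-like cells (against 8.60% of features) and 4 were lower in the Vegfc-deleted library (19.0% against 9.71%): Col6a3 1.64-fold (1.40 to 1.93), Col27a1 1.55-fold (1.04 to 2.36), and, below the level set for naming, Col16a1 2.03-fold (1.44 to 2.91) and Col4a1 1.94-fold (1.04 to 3.82). The Col6a3 difference turned to a log2 of 0.41 with a finer clustering, and that of Col27a1 to 0.43 after thinning. Col1a1 was at 0.820 (0.816 to 0.823) and Col1a2 at 0.777 (0.773 to 0.780) of the control's level, and the median log2 ratio was -0.25 (all features 0.00). Summed neutrophil markers stood at 53.3, 71164, 4790.1 and 33934 CPM in the class (3, 0, 0 and 0 of the 8 genes at 0) and summed osteolineage markers at 19139, 11748, 48583 and 80202. Their part in these values was not tested.

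Some collagen genes were also read in blood cells, and those given here are named after their values were seen. Col5a1 stood at 25.5, 32.2, 9.24 and 10.7 CPM in erythroid-like cells, and its ratio to Col1a2 UMIs there was 2.95, 3.50, 0.101 and 0.298, against 0.0806, 0.0836, 0.0861 and 0.0951 in LepR+ stromal-like and 0.0140, 0.0168, 0.00810 and 0.00883 in osteolineage-like cells. The erythroid ratio thus stood far above both without irradiation, and nearer to the stromal one with it. Col5a1 was highest in erythroid cluster 16 (70.9, 61.3, 45.1 and 44.2 CPM), which had the least haemoglobin transcript Hba-a1, lower in cluster 4 (32.7 and 41.5 CPM, non-irradiated libraries only) and cluster 1 (15.5, 20.1, 9.79 and 8.48), and lowest in cluster 3 (6.32, 5.89, 6.27 and 7.32), which had the most. Col1a2 was lowest in cluster 4 without irradiation (7.17 and 6.01 CPM). Like Col5a1, it was highest in cluster 16 in every library, at 13.9, 17.1, 173 and 49.1 CPM. Its counting interval there was clear of those in clusters 1 and 3 (91.5 and 89.7 CPM) only in the irradiated control. Cluster 16 was also the shallowest erythroid cluster, with median depths of 2464.0, 2703.5, 1570.5 and 3316.0 UMIs. In B lineage-like cells Col27a1 stood at 48.5, 31.0, 33.4 and 20.3 CPM against 0.0787, 0.0371, 0 and 0 in erythroid-like cells, and Col5a3 at 20.7, 18.9, 6.97 and 1.89.

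**Figure D5:**
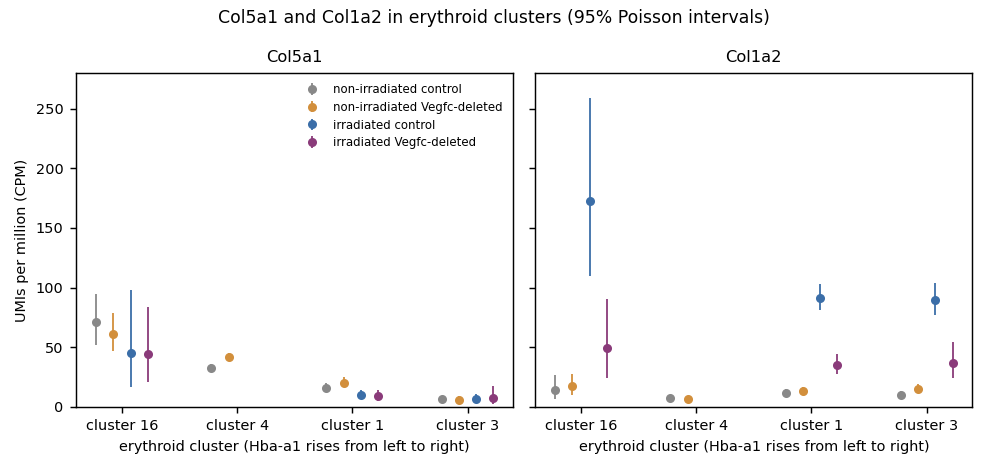
CPM of Col5a1 and Col1a2 in 4 erythroid-like clusters, ordered by rising Hba-a1 level from left to right, 1 point per library with 95% Poisson intervals; cluster 4 had cells in the non-irradiated libraries only. Col5a1 falls from 44.2 to 70.9 CPM in cluster 16 to 5.89 to 7.32 CPM in cluster 3, while Col1a2 is higher in both irradiated libraries in each of the 3 clusters that all libraries share.

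The genes that modify, export, cleave, cross-link, bind or sense collagen were read from 6 lists of 55 genes, chosen with earlier results of these data known. In LepR+ stromal-like cells 5 of 46 with 30 UMIs were higher and 5 lower with irradiation in the control (16.6% and 10.8% of all features were), and 2 and 9 of 43 in the Vegfc-deleted genotype (11.8% and 12.9%). Pcolce, which speeds removal of the procollagen tail, stood at 418, 422, 142 and 174 CPM, 2.94-fold (2.71 to 3.20) and 2.43-fold (2.13 to 2.79) lower. Lum, a fibril-spacing proteoglycan, stood at 117, 123, 69.1 and 56.4 CPM, and Ddr1, a collagen-sensing receptor kinase, at 68.6, 68.1, 132 and 113.

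In sinusoidal endothelial-like cells 6 of 34 list genes were higher and 0 lower in the control (19.2% and 5.80% of all features were), and 3 of 27 higher and 1 lower in the Vegfc-deleted genotype (15.6% and 7.32%). Prelp, which anchors basement membranes to fibrils, was the 1 gene past the naming floor in both, at 199, 198, 343 and 365 CPM, 1.72-fold (1.59 to 1.88) and 1.84-fold (1.69 to 2.01) higher. In osteolineage-like cells 9 of 45 were higher and 3 lower in the control (13.6% and 9.18% of all features were). The cross-linking enzymes parted. Lox stood at 442, 254, 937 and 807 CPM and Loxl2 at 26.6, 11.8, 309 and 474, higher with irradiation. Loxl1 stood at 117, 94.4, 17.5 and 6.93, lower by 6.68-fold (4.53 to 9.73) and 13.6-fold (6.60 to 27.6). The second ratio rests on 16 Loxl1 UMIs in the 7 non-irradiated Vegfc-deleted cells, where Loxl2 had 2. The rule that named the list genes of this class used those 7 cells too. Sparc, a collagen-binding protein of bone matrix, stood at 22862, 23242, 50773 and 47067 CPM, P4ha1, a prolyl hydroxylase subunit, at 141, 195, 238 and 301, and Pcolce2 at 24, 1433, 15.0 and 14.6, where the second value came wholly from the cartilage-gene cell.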

How the data were processed

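Single-cell libraries (10x 3′ v3.1) were analysed from the deposited tables, which hold raw UMI counts per gene and barcode, not normalized. Cell Ranger 2.1.1 and mm10 come from the submitters' processing notes, whereas the file headers record software 3.1.0. The annotation release was not given in the sources used here. Any barcode with fewer than 500 genes or over 10% mitochondrial UMIs was left out (2071, 2200, 1175 and 895). Scrublet doublet scores in scanpy 1.11.5, taken over all barcodes, flagged 444, 479, 212 and 211 of them, at 0.8% per 1000 barcodes. The flagged barcodes were left out too, and part of them had already failed the first filters.

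Counts were log-normalized, and 2000 variable genes without collagens, 40 principal components, 20 neighbours and Leiden (leidenalg 0.10.2, igraph 0.11.9, resolution 1, seed 7) gave clusters, named from 21 marker lists with no batch correction. UMIs were summed per class and library. Levels have exact Poisson intervals, ratios exact conditional intervals and shares of cells Clopper-Pearson intervals (scipy 1.17.1), at 95%. Each group is 1 library, so no test and no SD is given.

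A collagen gene is named in a class with 30 UMIs and 50 CPM in a library and a class level of at least 0.5 times the library's. List genes are named, at most 8 a class, where the ratio was at least 1.5 in the same direction in both genotypes. The members, lists and markers were chosen with earlier results of these data known. Of 31053 features, 30934 matched GENCODE vM21 by identifier, and 35 of 44 collagen genes had a RefSeq window. Of the collagen genes, 11 overlap a gene on the other strand and 0 on the same strand. Alternatives were TMM factors (edgeR 4.0.16), cells thinned to 1500 UMIs (4891, 4991, 3664 and 3848 cells were deep enough), other filters, clusterings, floors and subsets. The calls and ratio intervals were tested on Poisson counts drawn from the summed LepR+ stromal-like counts. The naming of cells and the summing were not part of that test.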

Additional observations from a re-analysis of the deposited data

Results flagged for a closer look

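The irradiation ratio of Col6a3 in LepR+ stromal-like cells lay on opposite sides of 1 in the genotypes, at 0.712 in the control and 1.36 in the Vegfc-deleted libraries. The difference was not tested, and thinning to 1500 UMIs turned the second to a log2 of -0.16.

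In pericyte- or smooth muscle-like cells, 18, 16, 15 and 7 in number, the irradiation ratios of 5 genes lay below 1 in the control and above 1 in the Vegfc-deleted genotype, with counting intervals that did not reach 1. The ratios were 0.234 and 1.77 for Col3a1, 0.304 and 3.97 for Col5a2, 0.335 and 3.21 for Col5a3, 0.397 and 2.48 for Col6a1, and 0.520 and 1.61 for Col6a2. Col5a2 rested on 16 against 11 UMIs in the Vegfc-deleted genotype, under the floor of 30. These differences between genotypes were not tested.

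Collagen signal also appeared in cells outside the named classes. Unnamed cluster 29 (105 cells) held 10510.1 collagen CPM, with Col1a2 at 2726, Col4a1 at 1384 and Col1a1 at 1319.9 CPM, and plasma-cell genes (Jchain, Igha) stood beside mural-cell genes (Acta2, Tagln) among its leading genes. Unnamed cluster 37 (36 cells) held 6859.7 collagen CPM, with Col1a2 at 1797 and Col1a1 at 1105 CPM, and bone-matrix genes (Mepe, Spp1, Postn, Dmp1) among its leading genes. Erythroid-like cells held 50.5 to 213 collagen CPM.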

How the results depend on the processing

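No paired analysis was possible because each group has 1 library. Of the log2 ratios of named genes, 833 values under alternatives stayed as they were within their intervals, 236 moved and 3 reversed, meaning that a ratio past the fold changed sign; ratios that had not passed it and changed sign are not among the 3. Of the counts, 172 stayed within 1.5 times and 39 did not. The cause was not tested where none is given. Leaving out shared barcodes or genes under 100 UMIs moved no count. Leaving out the cartilage-gene cell could move none, because no counted osteolineage comparison used its library. The 46 log2 ratios and 4 counts of that setting are among those that stayed. In the Vegfc-deleted genotype, which was not counted, the irradiation ratio of Col2a1 went from 0.0542 to 19.8 without the cell. Depth limits the genes under 30 UMIs and all osteolineage comparisons without irradiation, which rest on 17 and 7 cells.

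In what follows, "control" and "deleted" mean irradiated over non-irradiated in that genotype, "genotype" means Vegfc-deleted over control, and counts are of collagen genes. TMM factors took LepR+ deleted higher from 4 to 2 and osteolineage control lower from 6 to 2. Thinning, which leaves fewer UMIs, took in LepR+ cells control lower from 4 to 0, deleted lower from 2 to 1, genotype without irradiation from 1 to 0 higher and 2 to 0 lower, and genotype with irradiation from 1 to 0 higher. In sinusoidal cells it took control higher from 10 to 5, deleted lower from 1 to 0, genotype without irradiation higher from 1 to 0 and with irradiation lower from 5 to 2. In osteolineage cells it took control higher from 11 to 7 and lower from 6 to 0 and the irradiated genotype lower from 4 to 1. It also reversed the Col8a1 log2 ratio in the osteolineage control comparison, from -1.26 to 0.93, and that of Col27a1 between irradiated genotypes, from -0.62 to 0.43. Keeping doublets took the osteolineage irradiated genotype higher from 0 to 1. Resolution 2 took osteolineage control lower from 6 to 1 and irradiated genotype lower from 4 to 2, and reversed Col6a3 there, from -0.71 to 0.41. With collagen genes in the clustering, LepR+ irradiated genotype higher went from 1 to 2, osteolineage control lower from 6 to 0 and irradiated genotype lower from 4 to 2.

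At least 1000 genes per cell took LepR+ deleted lower from 2 to 4, genotype lower from 2 to 1 without and from 0 to 1 with irradiation, osteolineage control lower from 6 to 0 and irradiated genotype lower from 4 to 2. All endothelial clusters together gave deleted lower 2 (from 1) and non-irradiated genotype higher 3 (from 1). Without the shallow cluster, LepR+ non-irradiated genotype lower went from 2 to 1. A floor of 10 UMIs, which counts more genes, took LepR+ control higher from 3 to 6, deleted lower from 2 to 4, non-irradiated genotype higher from 1 to 4, and irradiated genotype from 1 to 3 higher and 0 to 1 lower. In sinusoidal cells it took control lower from 0 to 2, deleted lower from 1 to 4, non-irradiated genotype from 1 to 2 higher and 0 to 3 lower, and irradiated genotype lower from 5 to 10. Per non-collagen UMI, osteolineage control lower went from 6 to 3.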
